A study of Mus musculus with 8 samples.

Results

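The genes described here are 10 mouse genes for S100 proteins (S100a4, S100a6, S100a10, S100a11), galectins (Lgals1, Lgals3) and annexins (Anxa1, Anxa2, Anxa5, Anxa6). They were taken by symbol, and the values of all transcripts that carry the symbol were summed per gene, so that 10 of the 54146 genes in the transcript tables are covered. Of these 10 genes, 7 passed the filter on low counts and were among the 14791 genes tested. The other 3 (S100a10, S100a11 and Lgals3) were at or near 0 counts in every library, so counts over the 7 tested genes do not stand for the whole set.

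The measurements are RNA-seq of EL4 cells, a mouse T lymphoma line, that were transduced with retroviruses in 4 combinations. GFP + Plum cells carry only the fluorescent proteins, T-bet + Plum cells carry FLAG-tagged T-bet, GFP + GATA3 cells carry HA-tagged GATA3, and T-bet + GATA3 cells carry both factors. All 4 lines were stimulated with PMA at 50 ng/ml and ionomycin at 1 μM for 4 h, so no unstimulated cells enter any comparison. Each line has 2 libraries here, numbered 1 and 2. This is fewer than described for the expression comparisons of the study, and any others were not analysed here. The study defines replicates as harvests of the same line on different days, so the spread between them does not cover differences between independently transduced lines.

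Most S100 proteins are small calcium sensors that change shape when calcium binds and then attach to other proteins, among them annexins. Annexins bind negatively charged membrane lipids in the presence of calcium, and galectins bind sugar chains that carry galactose, inside cells or after secretion. In T cells, several of these genes are known to be higher in effector and memory cells than in naive cells, and T-bet and GATA3 are the transcription factors that direct the TH1 and TH2 effector fates. The libraries therefore address how much each factor, alone or together with the other, changes the level of these genes in one stimulated T cell line.

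The libraries held between 8038565 and 16003519 estimated counts. Tbx21, the gene for T-bet, was between 129 and 160 CPM (counts scaled to the size of the library) in the T-bet libraries and between 1.78 and 3.59 CPM in the others, and Gata3 was between 165 and 326 CPM in the HA-GATA3 libraries and between 25.8 and 53.3 CPM in the others. Within these ranges Gata3 was lower with T-bet, at 204 and 165 CPM in T-bet + GATA3 against 283 and 326 CPM in GFP + GATA3, and at 25.8 and 34.9 CPM in T-bet + Plum against 39.8 and 53.3 CPM in GFP + Plum. Comparisons of T-bet with and without HA-GATA3 therefore do not hold the Gata3 level constant, and the part of this in their values was not tested. All 8 T cell markers checked were detected well enough to be tested. Their summed level was 1043 to 1337 CPM with T-bet and 779 to 1076 CPM without. Cd4 added little to this sum, at 1.12 to 4.85 CPM with T-bet and 0.571 to 1.27 CPM without. Of these markers, Cd3d, Lck and Cd5 rose with T-bet when averaged over both GATA3 states. Summed macrophage markers were at 2.38 to 3.98 CPM with T-bet and 2.85 to 4.46 CPM without, and summed B cell markers at 0.324 to 1.27 CPM and 0.697 to 1.02 CPM, with Cd79b at 0 in all libraries. Of the macrophage markers, Lyz2 was lower with T-bet in the average (log2 fold change of -2.58 ± 0.47, edgeR FDR = 0.00837), at a low level in every library. Summed fibroblast markers were at 3.11 to 6.60 CPM with T-bet and 11.99 to 25.2 CPM without, most of it Pdgfra, which was called lower in both T-bet comparisons. Dcn, the other fibroblast marker tested, was at 0 in both Plum lines, at 0.0957 and 0.444 CPM in GFP + GATA3 and at 0.865 and 0.998 CPM in T-bet + GATA3, and was not called. The part that these shifts have in the results was not tested.

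S100a4 and S100a6 were lower in the cells with T-bet. S100a4, which binds non-muscle myosin and is known for its role in cell motility, is encoded on chromosome 3 at chr3:90603771-90606045 on the plus strand (GRCm38). Its level was 477 and 451 CPM in the GFP + Plum libraries (1 and 2, an order kept below), 433 and 419 CPM with HA-GATA3 alone, 283 and 320 CPM with T-bet alone, and 192 and 278 CPM with both factors. The 4 libraries with T-bet were all below the 4 without it. The effect of T-bet without HA-GATA3 (T-bet + Plum against GFP + Plum) was a log2 fold change of -0.62 ± 0.17 (SE, n = 2 per line), which did not pass the test (edgeR FDR = 0.0847), although it was called by DESeq2 (FDR = 0.0120), without a filter on low counts (FDR = 0.00200) and with the replicate number as a block (FDR = 0.0463). With HA-GATA3 (T-bet + GATA3 against GFP + GATA3) it was -0.86 ± 0.17, which did (FDR = 0.0269). This call was lost with only the libraries of the comparison (-0.86, edgeR FDR = 0.0555) and with limma (-1.07, FDR = 0.0537). The fit without a filter called 293 genes for GFP + GATA3 against GFP + Plum, where the main fit called 3, so its calls are less strict. In bulk RNA, fewer cells with a transcript and less of it per cell cannot be told apart.

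S100a6, also called calcyclin, lies 6836 bases beyond the end of S100a4 at chr3:90612882-90624181 on the same strand. It was measured at 197 and 164 CPM in the GFP + Plum libraries, 212 and 196 CPM with HA-GATA3 alone, 119 and 117 CPM with T-bet alone, and 115 and 69.96 CPM with both factors. Here too the libraries with and without T-bet did not overlap, and the lowest value was T-bet + GATA3 library 2, whereas S100a4 was lowest in T-bet + GATA3 library 1. S100a6 had a log2 fold change of -0.62 ± 0.22 without HA-GATA3 (FDR = 0.160, and 0.00357 without a filter on low counts) and -1.14 ± 0.22 with it (edgeR FDR = 0.0212).

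Because both neighbours were lower in the libraries with T-bet, the 250 bases before the RefSeq start site of each (GRCm38.p6) are shown. They were searched on both strands for the T-box letters GGTGTGA and AGGTGT, the GATA letters AGATAA and TGATAA and the AP-1 letters TGACTCA. No match was found in either window, chr3:90603520-90603769 for S100a4 and chr3:90612644-90612893 for S100a6, which says only that these letters are not there.
S100a4: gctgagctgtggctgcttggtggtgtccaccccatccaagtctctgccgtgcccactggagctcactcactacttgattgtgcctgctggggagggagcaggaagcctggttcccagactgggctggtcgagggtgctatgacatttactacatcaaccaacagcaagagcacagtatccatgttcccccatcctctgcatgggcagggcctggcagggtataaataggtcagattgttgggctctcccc
S100a6: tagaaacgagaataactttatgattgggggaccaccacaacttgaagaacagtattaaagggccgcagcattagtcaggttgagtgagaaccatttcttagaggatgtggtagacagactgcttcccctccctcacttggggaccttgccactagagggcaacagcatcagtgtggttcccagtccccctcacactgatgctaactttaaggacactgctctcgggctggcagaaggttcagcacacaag

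S100a4 and S100a6 are part of a block of S100 genes on chromosome 3, of which 14 were looked at. Without T-bet, 3 of these 14 genes had a mean of 1 CPM or more, namely S100a4, S100a6 and S100a13, and 6 were at 0 in all libraries. Between S100a4 and S100a6 lies S100a5, a gene at 0 counts in all 8 libraries. S100a13 was at 24.4 CPM on average without T-bet and 25.0 CPM with it, with a log2 fold change of 0.08 ± 0.23 without HA-GATA3.

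**Figure D1:**
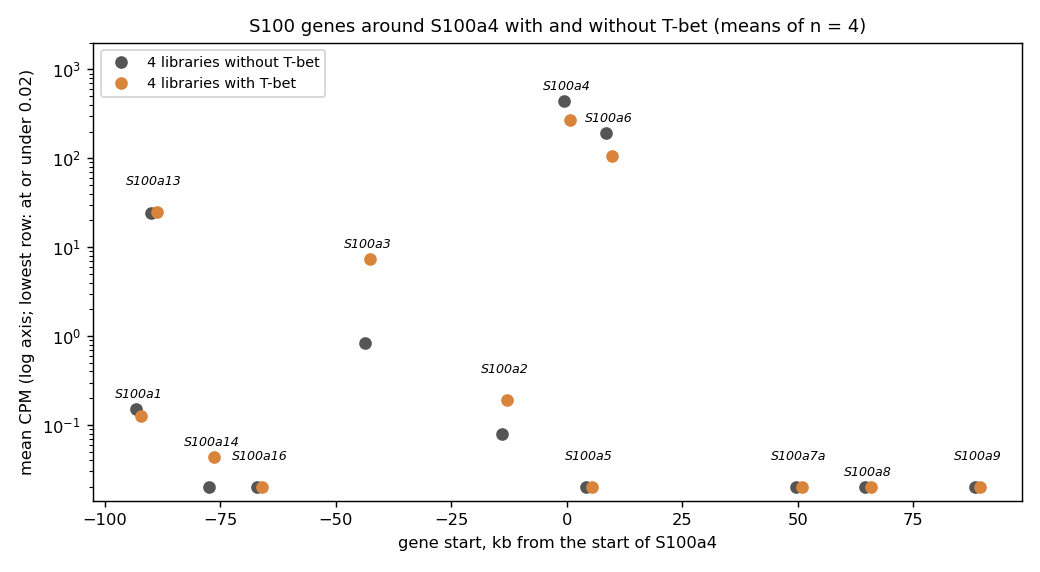
Mean level (CPM, log axis) of the S100 genes around S100a4 against the distance of their start from the start of S100a4 (kb), for the 4 libraries without T-bet (grey) and the 4 with T-bet (orange); points in the lowest row stand for means at or near 0. S100a4 and S100a6 are lower with T-bet, S100a3 is higher, and S100a13 lies at nearly the same level in both.

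S100a3, the gene on the other side of S100a4, went the other way. Its level was 1.32 and 0.48 CPM in the GFP + Plum libraries, 0.89 and 0.65 CPM with HA-GATA3 alone, 7.26 and 10.4 CPM with T-bet alone, and 8.99 and 2.85 CPM with both factors. It rose by a log2 fold change of 3.28 ± 0.62 without HA-GATA3 (edgeR FDR = 0.0212) and 2.96 ± 0.66 with it (FDR = 0.0394). Even with T-bet, S100a3 stayed at 13.6 TPM or less per line, against 559 TPM or more for S100a4 (TPM give a level per transcript length). A gene model annotated for nonsense-mediated decay, Gm42674, shares 272 of the 553 stretches of 31 bases in the S100a4 transcripts. It held between 0 and 89.9 estimated counts per library, against 1774 to 7703 for S100a4. The split of counts between these models is therefore uncertain at that size. Whether S100a3 shares such stretches with Gm42674 was not looked at.

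S100a10 and S100a11 were listed at 0. S100a10 is the S100 protein that binds annexin A2 into a complex at the membrane, and S100a11 is a partner of annexin A1. Both genes had 0 estimated counts in all 8 libraries, which allows up to 3 counts per library, or 0.186 to 0.373 CPM depending on the library. On the scale per length this limit was 0.377 to 0.761 TPM for S100a10 and 0.445 to 0.899 TPM for S100a11, against 235 to 1191 TPM for the line means of S100a4 and S100a6. These limits cover counting error only, and whether the 0 of these genes stands for absent RNA was not tested. S100a11 shares stretches of 31 bases with 6 pseudogenes, Gm12854 with the most (226 of 481), and none of these pseudogenes held more than 1 count in a library. S100a10 shares 5 of 1180 such stretches with the pseudogene Gm4714, which was at 0. Housekeeping genes such as Actb, Gapdh and Tbp were above 0 in every library.

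The window before the S100a11 start (chr3:93520246-93520495, plus strand) is shown because it held the most matches among the members although the gene was listed at 0. Capitals mark the letters TGAGTCA, which read TGACTCA on the other strand, at positions -136 to -130 and -38 to -32 from the start, and TTATCT, which reads AGATAA, at -248 to -243. The AP-1 letters occur in 4.46% and AGATAA in 9.99% of the 32851 windows of this length in the RefSeq table.
S100a11: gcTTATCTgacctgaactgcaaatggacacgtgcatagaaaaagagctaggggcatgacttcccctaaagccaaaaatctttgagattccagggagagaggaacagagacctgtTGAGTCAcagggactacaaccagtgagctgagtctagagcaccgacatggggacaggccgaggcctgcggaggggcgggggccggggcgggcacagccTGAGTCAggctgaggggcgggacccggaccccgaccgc

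Lgals1 was lower with T-bet in the average over both GATA3 states, and Lgals3 was near 0. Lgals1 encodes galectin-1, a secreted protein that binds glycans on T cells and can trigger their death, and lies at chr15:78926725-78930465 (plus strand). It was measured at 386 and 530 CPM in the GFP + Plum libraries, 501 and 583 CPM with HA-GATA3 alone, 323 and 360 CPM with T-bet alone, and 382 and 413 CPM with both factors. GFP + Plum library 1 lay within the range of the T-bet libraries, so the groups overlapped. Lgals1 had a log2 fold change of -0.43 ± 0.17 without HA-GATA3 (edgeR FDR = 0.218) and -0.45 ± 0.17 with it (FDR = 0.190). The first value was -0.64 without GFP + Plum library 1 and -0.18 without GFP + Plum library 2. Averaged over both GATA3 states, Lgals1 was at -0.44 ± 0.12 (edgeR FDR = 0.0444). This call was lost when any 1 of 7 libraries was left out, all but GFP + Plum library 1, and the FDR then ranged from 0.0106 to 0.170 over the 8 fits.

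Lgals3, which encodes galectin-3, had 1 estimated count in GFP + Plum library 2 and 0 in the other 7 libraries. The limit of 3 counts corresponded to 0.195 to 0.396 TPM, against 544 TPM or more for the line means of Lgals1.

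Anxa1 fell with T-bet by the most among the annexins. Annexin A1 is induced by glucocorticoids and, once secreted, acts on formyl peptide receptors. The gene lies at chr19:20373428-20390944 on the minus strand. Its level was 1254 and 925 CPM in the GFP + Plum libraries, 1445 and 1181 CPM with HA-GATA3 alone, 600 and 488 CPM with T-bet alone, and 546 and 532 CPM with both factors. Every library with T-bet was below every library without it. With T-bet the log2 fold change was -1.0 ± 0.19 without HA-GATA3 (edgeR FDR = 0.0192) and -1.28 ± 0.19 with it (FDR = 0.0069), so that the level in the second comparison dropped to 0.410 of that in GFP + GATA3.

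The 250 bases before the RefSeq start of Anxa1 (chr19:20390672-20390921, minus strand) are shown because this window was the only one of 7 members matched in the RefSeq table that held T-box letters. Capitals mark AGGTGT at positions -55 to -50 from the start, a string that 11.8% of all 32851 windows hold. The longer form GGTGTGA, held by 3.33% of windows, was not found. The window lies inside the Gencode gene, whose longest model starts further upstream.
Anxa1: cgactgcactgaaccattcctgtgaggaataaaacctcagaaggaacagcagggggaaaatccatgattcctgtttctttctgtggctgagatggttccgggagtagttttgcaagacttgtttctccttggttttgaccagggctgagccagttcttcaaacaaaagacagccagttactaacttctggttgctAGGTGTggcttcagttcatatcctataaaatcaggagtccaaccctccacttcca

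Anxa5 also fell. Annexin A5 binds phosphatidylserine and is used as a probe for dying cells, and its gene lies at chr3:36448923-36475894 (minus strand), far from the S100 block. Its level was 178 and 167 CPM in the GFP + Plum libraries, 179 and 204 CPM with HA-GATA3 alone, 105 and 102 CPM with T-bet alone, and 82.3 and 104 CPM with both factors. The groups with and without T-bet were far apart, with no value between 105 and 167 CPM. The log2 fold change was -0.74 ± 0.14 without HA-GATA3 (edgeR FDR = 0.0217) and -1.03 ± 0.14 with it (FDR = 0.00550).

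Anxa6 was the member that rose. Annexin A6 carries a duplicated annexin core and takes part in membrane and cholesterol traffic, and its gene lies at chr11:54979108-55033445 (minus strand). It was measured at 57.3 and 103 CPM in the GFP + Plum libraries, 66.9 and 69.4 CPM with HA-GATA3 alone, 191 and 206 CPM with T-bet alone, and 129 and 193 CPM with both factors. The lowest T-bet library, T-bet + GATA3 library 1, was still above the highest library without T-bet, GFP + Plum library 2. The log2 fold change was 1.31 ± 0.28 without HA-GATA3 (edgeR FDR = 0.0319) and 1.24 ± 0.28 with it (FDR = 0.0401).

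Anxa2 differed from the other members in that GFP + Plum alone was low. Annexin A2 is the membrane partner of S100a10 and a binding site for plasminogen, and its gene lies at chr9:69453620-69491795 (plus strand). It was measured at 448 and 328 CPM in the GFP + Plum libraries, 599 and 531 CPM with HA-GATA3 alone, 537 and 573 CPM with T-bet alone, and 626 and 540 CPM with both factors. Both GFP + Plum libraries were below the other 6, which overlapped. T-bet gave a log2 fold change of 0.52 ± 0.17 without HA-GATA3 (edgeR FDR = 0.132) and 0.05 ± 0.17 with it (FDR = 0.925), and neither passed the test, although the first did without a filter on low counts (FDR = 0.0440). The second of these values turned to -0.04 with scaling by library size only. The window before the Anxa2 start held TGACTCA once, at positions -95 to -89 from the start.

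**Figure D2:**
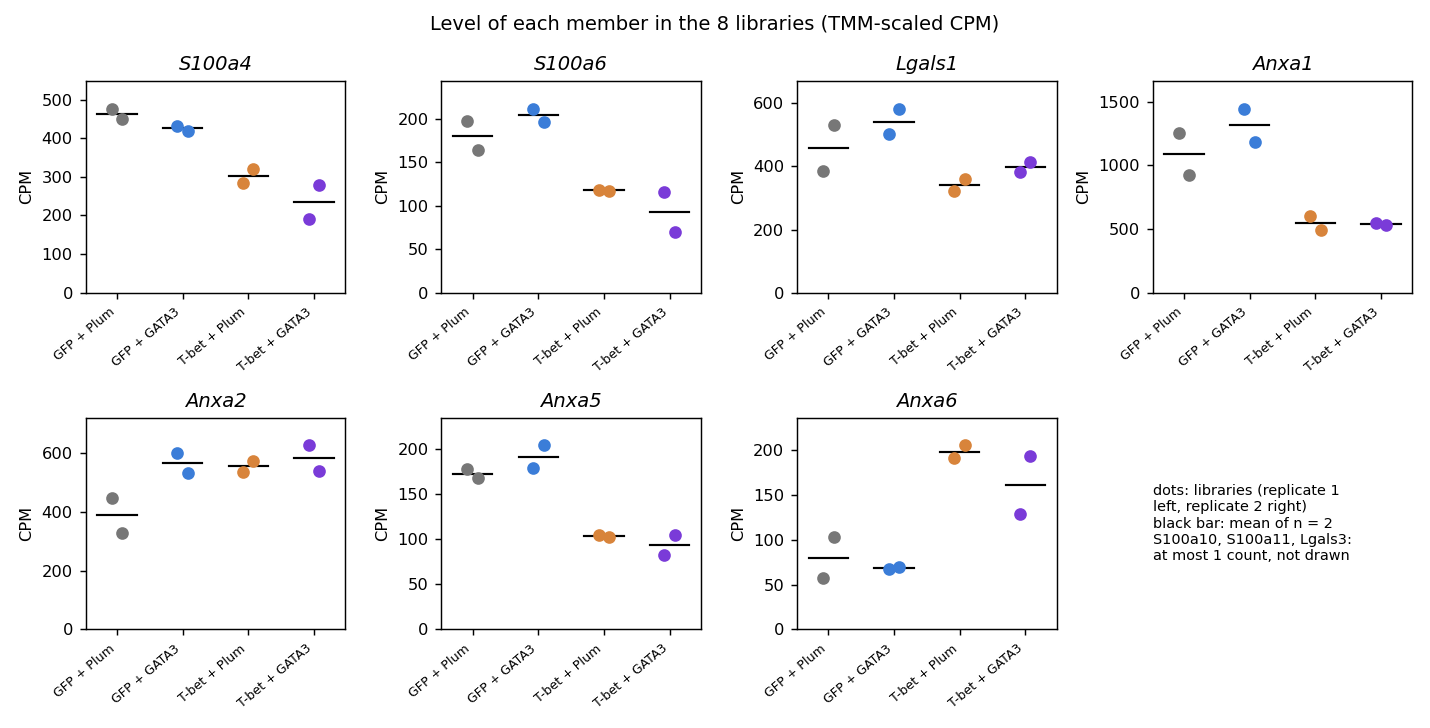
Level (CPM on TMM-scaled library sizes) of the 7 detected members in each library of the 4 lines; dots are libraries and black bars the mean of n = 2, with each vertical axis starting at 0. S100a4, S100a6, Anxa1 and Anxa5 are lower in both lines with T-bet, Anxa6 is higher, and Lgals1 and Anxa2 overlap.

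Over the members, 4 of 7 had all T-bet libraries below all others, whereas this held for 10.2% of the genes tested. In 1 of 7 they were all above, which held for 12.5%. The members were chosen with earlier results of these data known, so such shares are descriptions. For T-bet + Plum against GFP + Plum, 3 of 7 members had an FDR of 0.05 or less and were called (Anxa1 and Anxa5 down, Anxa6 up), where 6.2% of all genes tested were called. The same comparison called 2.16% of genes down and 4.04% up. In T-bet + GATA3 versus GFP + GATA3 libraries, 5 of 7 were called (S100a4, S100a6, Anxa1 and Anxa5 down, Anxa6 up). There 5.77% of genes were called, 2.05% down and 3.73% up. The genes tested are unlike the 7 members, which are all protein-coding and at the 84.9th percentile of mean TPM or higher. In a fit of protein-coding genes only, the same members were called in each comparison, where 9.06% and 8.78% of genes were. The median log2 fold change of the 7 members was -0.62 and -0.86 in these comparisons, and that of all genes tested was 0.01 in both. In the main fit, no member passed the stricter threshold of the study, which adds a log2 fold change above 1.5 in size. It was passed by 3.02% of genes in the first comparison and 2.85% in the second. Without GFP + Plum library 2, Anxa6 was at 1.79 in the first comparison. In the second, S100a6 was at -1.56 without T-bet + GATA3 library 1, and Anxa1 at -1.52 with limma (FDR = 0.0112).

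These calls depended on single libraries, as did those over all genes. With a library left out, edgeR called between 1.71% and 6.12% of genes in T-bet + Plum versus GFP + Plum (2.5% and 1.71% without T-bet + Plum library 1 and 2), and between 1.59% and 6.53% for T-bet + GATA3 against GFP + GATA3 (1.97% and 1.59% without GFP + GATA3 library 1 and 2). For T-bet + Plum versus GFP + Plum, no member was called without T-bet + Plum library 1 or without T-bet + Plum library 2, and Anxa2 alone was called without GFP + Plum library 1. Without GFP + Plum library 2, Anxa1 and Anxa6 were called, and without either GFP + GATA3 library Anxa1 and Anxa5 were. Without either T-bet + GATA3 library, S100a4 and S100a6 joined and 5 members were called. For T-bet + GATA3 versus GFP + GATA3, Anxa1 was called in all 8 such fits. It was alone without GFP + GATA3 library 2, and Anxa5 joined it without GFP + GATA3 library 1. Anxa1, Anxa5 and S100a6 were called without T-bet + GATA3 library 1 or either T-bet + Plum library, S100a4 joined these without T-bet + GATA3 library 2, and all 5 were called without either GFP + Plum library. The direction of S100a4, S100a6, Lgals1, Anxa1, Anxa5 and Anxa6 in both comparisons was the same in every fit. That of Anxa2 in T-bet + GATA3 versus GFP + GATA3 was not.

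Averaged over both GATA3 states, which uses 4 libraries against 4, 6 of 7 members were called. Here 15.2% of genes were called, and 21.5% in a fit of protein-coding genes only, which called the same 6. Of the 6 members, 5 were lower, as were 6.61% of all genes tested. Anxa1 fell by 1.14 ± 0.13 on the log2 scale (edgeR FDR = 0.00102), Anxa5 by 0.89 ± 0.10 (FDR = 0.000945), S100a6 by 0.88 ± 0.15 (FDR = 0.00727) and S100a4 by 0.74 ± 0.12 (FDR = 0.00594). Anxa6 rose by 1.28 ± 0.20 (FDR = 0.00404). These 5 genes kept their call when each library was left out in turn. Anxa2 was at 0.28 ± 0.12 (unadjusted p = 0.0452, FDR = 0.160) and was called only without GFP + Plum library 1, at FDR = 0.0357.

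**Figure D3:**
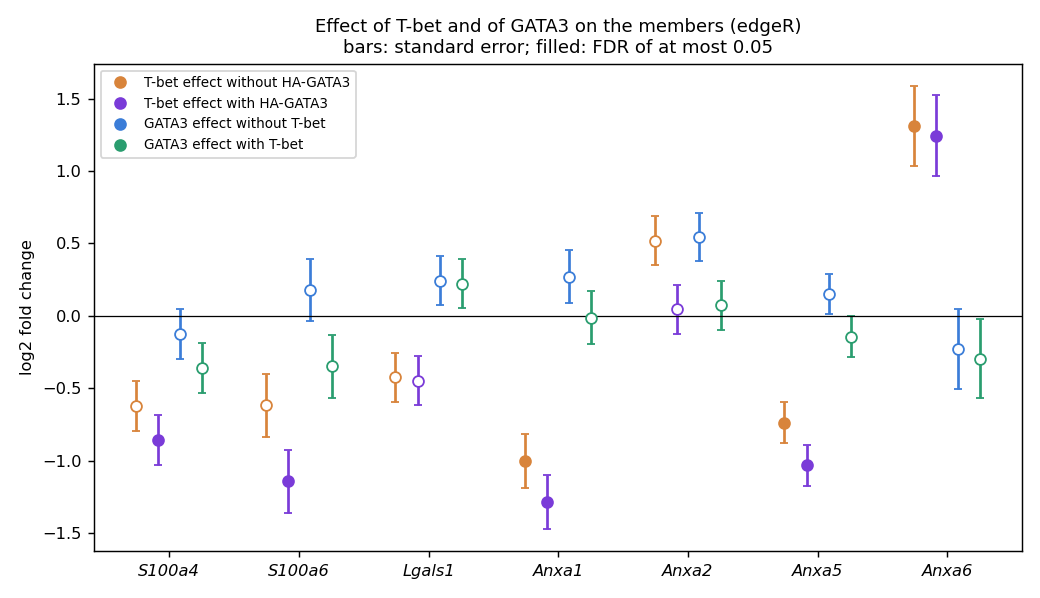
Log2 fold change with its standard error (bars) of the 7 tested members for T-bet without HA-GATA3 (orange), T-bet with HA-GATA3 (purple), GATA3 without T-bet (blue) and GATA3 with T-bet (green); filled points have an edgeR FDR of at most 0.05. Filled points occur only for T-bet, below 0 for S100a4, S100a6, Anxa1 and Anxa5 and above 0 for Anxa6.

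HA-GATA3 changed none of the members past the test. In GFP + GATA3 versus GFP + Plum, 0 of 7 were called by edgeR, DESeq2 or limma, which called 0.0203%, 0.385% and 0.027% of genes. Anxa2 had the only unadjusted p below 0.05, as 3.7% of genes did, with a log2 fold change of 0.54 ± 0.17 (unadjusted p = 0.0119, edgeR FDR = 0.926). The other 6 members lay between -0.23 (Anxa6) and 0.27 (Anxa1). Anxa6 turned to 0.25 without GFP + Plum library 2, and Anxa1 moved to 0.50 without GFP + Plum library 1. For HA-GATA3 added to T-bet (T-bet + GATA3 against T-bet + Plum), 0 of 7 members were called by any of the 3 tools. There edgeR, DESeq2 and limma called 0.0338%, 0.257% and 0.0744% of genes. No member had an unadjusted p below 0.05 in edgeR, where 3.78% of genes did. The members lay between -0.36 (S100a4) and 0.22 (Lgals1), and standard errors were between 0.14 and 0.27. Averaged over both T-bet states, 0 of 7 were called by any of the 3 tools. There edgeR, DESeq2 and limma called 0.0608%, 0.602% and 0.0879% of genes. There Anxa2 alone had an unadjusted p below 0.05, as 4.96% of genes did. It was at 0.31 ± 0.12 (unadjusted p = 0.0319, edgeR FDR = 0.895) and the others lay between -0.27 and 0.23.

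Whether HA-GATA3 altered the effect of T-bet was tested by the interaction of both factors. No member was called by edgeR, DESeq2 or limma, which called 0.0%, 0.101% and 0.00676% of all genes. In edgeR no member had an unadjusted p below 0.05, where 381 genes (2.58%) did. All 7 values were below 0, from -0.52 ± 0.31 for S100a6 to -0.02 ± 0.24 for Lgals1, but this count rested on single libraries. Without T-bet + GATA3 library 1 it was 4 of 7, without GFP + Plum library 1 it was 5, and without T-bet + Plum library 2 or GFP + GATA3 library 2 it was 6. So S100a4 and S100a6 were called with HA-GATA3 and not without it, but the difference between both settings did not pass the test.

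Against GFP + Plum, T-bet + GATA3 cells had 4 of 7 members called, all of them lower, where 4.87% of genes were called and 1.43% were lower. Anxa1 was at -1.02 ± 0.19 (edgeR FDR = 0.02), S100a4 at -0.98 ± 0.17 (FDR = 0.0181), S100a6 at -0.97 ± 0.22 (FDR = 0.0457) and Anxa5 at -0.88 ± 0.14 (FDR = 0.0117). S100a6 lost its call when at least 10 counts were required in every library, where 4.66% of genes were called. S100a4 lost its call with limma, which called 2.54% of genes. All 4 were called in a fit of protein-coding genes only, where 7.26% of genes were. Anxa6 was at 1.01 ± 0.28 (FDR = 0.0883) and Anxa2 at 0.59 ± 0.17 (FDR = 0.102), and neither passed, although both were called by DESeq2, with the replicate number as a block and without a filter on low counts. Lgals1 was at -0.20 ± 0.17, which turned to 0.05 without GFP + Plum library 2. No member was called in a fit of these 4 libraries alone, where 2.11% of genes were. With a library left out, 2.42% to 3.63% of genes were called, the lowest share without T-bet + GATA3 library 1. Between 1 and 4 members were called when each library was left out: S100a6 alone without T-bet + GATA3 library 1, Anxa5 and S100a4 without T-bet + GATA3 library 2, and Anxa2 and Anxa5 without GFP + Plum library 1. Without GFP + Plum library 2, Anxa6 took the place of S100a6. Without any one of the other 4 libraries, S100a6 was not called and Anxa1, Anxa5 and S100a4 were. This comparison shares its libraries with those above.

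Levels of different genes were compared per length, in TPM. In GFP + Plum the mean order was S100a4 at 1191 TPM, Anxa1 at 818, Lgals1 at 746, S100a6 at 522, Anxa2 at 339, Anxa5 at 123 and Anxa6 at 35.7. Only Anxa1 and Lgals1 overlapped among neighbours in this order, as they did in GFP + GATA3, where the order was the same. In T-bet + Plum the order was S100a4 at 745 TPM, Lgals1 at 544, Anxa2 at 463, Anxa1 at 386, S100a6 at 319.9, Anxa6 at 87.1 and Anxa5 at 67.7, and no neighbours overlapped. In T-bet + GATA3 it was Lgals1 at 591 TPM, S100a4 at 559, Anxa2 at 461, Anxa1 at 351, S100a6 at 235, Anxa6 at 67.9 and Anxa5 at 58.9, with overlap of S100a4 with both Lgals1 and Anxa2 and of Anxa6 with Anxa5.

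The shift is visible in the ratio of pairs of annexins within a library. Anxa2 was at 0.410 to 0.520 of the TPM of Anxa1 in the libraries without T-bet and at 1.04 to 1.43 in those with it. Anxa6 was at 0.0281 to 0.0671 of Anxa1 without T-bet and at 0.154 to 0.262 with it. The ratio of S100a6 to S100a4 overlapped, at 0.401 to 0.525 without T-bet and 0.279 to 0.653 with it. Together the members held 0.342% to 0.441% of all TPM without T-bet and 0.212% to 0.266% with it, and these sums are descriptions of genes already given above.

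**Figure D4:**
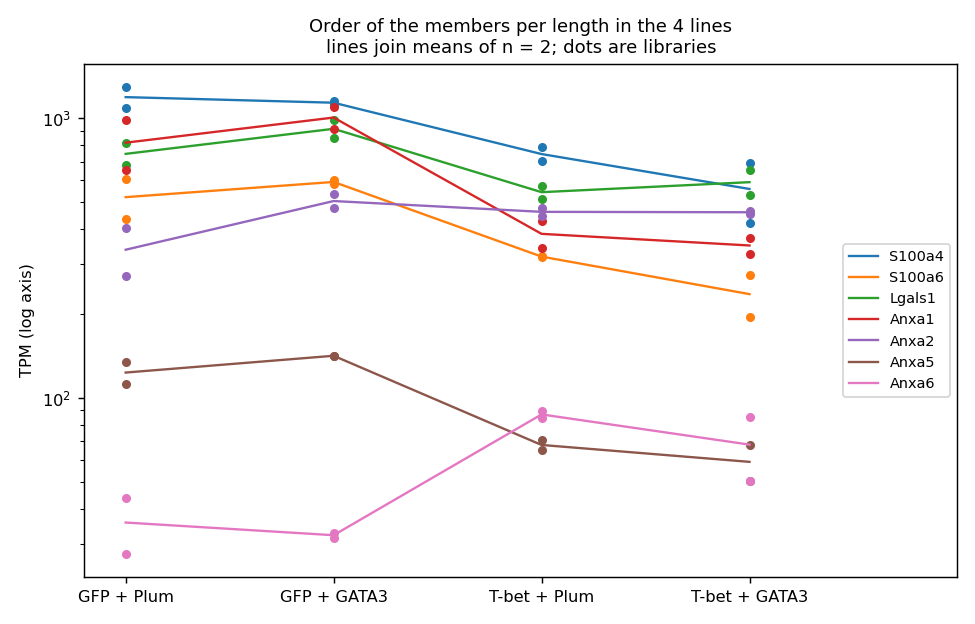
Level per length (TPM, log axis) of the 7 detected members in the 4 lines; dots are libraries and lines join the means of n = 2. The lines of Anxa6 and Anxa5 cross between the lines without and with T-bet, and Anxa1 drops below Anxa2.

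The members make up most of the RNA of their families in these cells. By mean TPM, they held 96.5% of the sum over 17 S100 genes, 95.4% of that over 12 annexins and 94.2% of that over 9 galectins. The highest mean level of a gene outside the members was 41.2 TPM for S100a13, 29.8 TPM for Anxa11 and 21.2 TPM for Lgals9. Among all genes tested, the mean TPM of S100a4, Lgals1, Anxa1, Anxa2 and S100a6 lay above the 97th percentile, from 97.7 to 98.7, and that of Anxa5 and Anxa6 at 91.5 and 84.9.

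The counts of most members came from 1 transcript. The leading transcript held 99.6% of S100a4, 96.0% of Anxa1, 97.4% of Anxa5 and 90.6% of Anxa2 counts over all libraries. For S100a6 it held 76.5% to 81.8% per library. For Lgals1, a transcript annotated for nonsense-mediated decay was assigned 25.5% to 35.1% of counts per library. An exact two-sided permutation test of the leading share, 4 libraries against 4, gave adjusted p-values of 0.514 to 1 over the 6 members tested. The smallest p this design allows is 0.0286 before adjustment and 0.171 after it for a single member, so a changed split of 1 member could not have passed.

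Anxa6 was the member whose split varied most between libraries. Its transcripts of 2489 and 2471 bases differ by exon 21 of the longer one, 18 bases at chr11:54987051-54987068 on the minus strand, shown here in capitals between its flanks in that transcript because the split rests on these bases.
Anxa6: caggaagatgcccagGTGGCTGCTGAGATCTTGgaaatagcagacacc
The transcript with this exon was assigned 38.9% and 78.7% of Anxa6 counts in the GFP + Plum libraries, 83.7% and 53.1% in GFP + GATA3, 72.8% and 68.5% in T-bet + Plum, and 66.1% and 59.1% in T-bet + GATA3. The T-bet libraries lay inside the range of the others, and the replicates of GFP + Plum and of GFP + GATA3 lay far apart. The sum over transcripts, on which the rise of Anxa6 rests, does not use this split.

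**Figure D5:**
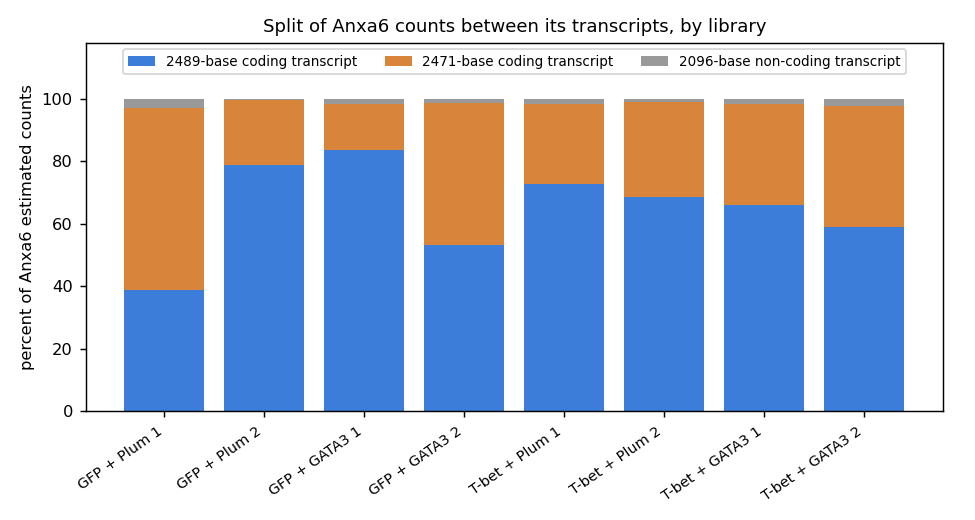
Percent of the estimated counts of Anxa6 assigned to each of its 3 transcripts in the 8 libraries, as stacked bars. The transcript of 2489 bases ranges from 38.9% to 83.7% over the libraries without T-bet and from 59.1% to 72.8% over those with T-bet.

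Other genes of these families and pathways were counted from lists. Of 13 other S100 genes, 2 were tested and S100a3 was the one called in both T-bet comparisons. Of 8 other annexins, 3 were tested and none was called in either comparison. Anxa11 was at -0.57 ± 0.24 without HA-GATA3 (edgeR FDR = 0.245) and -1.0 ± 0.24 with it (FDR = 0.0519), and averaged over both states it was called at -0.78 ± 0.17 (FDR = 0.0180). Of 8 other galectins, 3 were tested and none was called in either comparison or in the average.

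Among 14 partners and receptors of the members, 10 were tested. Mgat5, a glycosyltransferase that builds the branched N-glycans to which galectins bind, rose by 1.35 ± 0.15 on the log2 scale without HA-GATA3 (edgeR FDR = 0.00174) and by 1.26 ± 0.15 with it (FDR = 0.00254). It was between 102 and 124 CPM in the libraries without T-bet and between 247 and 299.9 CPM in those with it. The formyl peptide receptors Fpr1 and Fpr2, on which annexin A1 acts, were at 0 counts in all libraries, as was Dysf. No other gene of this list was called in these comparisons. Ahnak, a large scaffold protein that binds annexin A2 with S100a10, was called only in the average, at -0.67 ± 0.17 (FDR = 0.0352), as was Lgals3bp at 0.83 ± 0.19 (FDR = 0.0233). Cacybp, the calcyclin binding protein, and Myh9, the myosin that S100a4 binds, were not called, at -0.16 ± 0.16 and 0.39 ± 0.16 without HA-GATA3.

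Of 10 genes known beside the members in effector and memory T cells, 9 were tested. Emp3, a small membrane protein, fell by 2.01 ± 0.42 without HA-GATA3 (edgeR FDR = 0.0306) and fell by 2.51 ± 0.43 with it (FDR = 0.0134). Vim, which encodes the filament protein vimentin, was at -1.04 ± 0.27 without HA-GATA3 (FDR = 0.0644) and fell by 1.38 ± 0.27 with it (FDR = 0.0224). Id2, an inhibitor of E proteins, was at -1.18 ± 0.29 (FDR = 0.0524) and fell by 1.54 ± 0.29 (FDR = 0.0206). Cd44, the adhesion receptor used to mark such cells, was at -0.10 ± 0.11 and 0.41 ± 0.11 and was not called. In the average over both GATA3 states, 3 of these 9 were called lower (Vim, Emp3, Id2), as were 6.61% of all genes tested, and 2 higher (Capg, Tmsb10), as were 8.55%.

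The genes whose level over the 8 libraries was most like that of each member were sought among 8003 other protein-coding genes with a mean of at least 10 CPM, by Pearson's r of log2 CPM. They were Rnf167 and Gigyf1 for S100a4, Arih2 and Ccr9 for S100a6, Vbp1 and AC099860.1 for Lgals1, Chm and Llgl1 for Anxa1, Atp5e and Camk2d for Anxa2, Zfp740 and Cnep1r1 for Anxa5, and Rassf3 and Ptpn11 for Anxa6. Their r lay between 0.954 and 0.997. Each r rests on 8 libraries that share 4 lines, so it follows the line differences and is given as a description. A like pattern did not mean a like size: Arih2 was between 67.97 and 74.1 CPM in the line means, while Ptpn11 was at 183 and 177 CPM without T-bet and 403 and 368 CPM with it.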

How the data were processed

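RNA-seq libraries of 4 EL4 lines were analysed, 2 per line and 8 in all. The authors trimmed reads with Trim Galore, quantified transcripts with kallisto (versions not given in the sources used here), and deposited estimated counts and TPM for 136535 transcripts per library, without pooling. The deposited estimated counts are not normalized, and kallisto divides fragments between similar transcripts. The deposited TPM are scaled per length and to a fixed total, by the authors. The methods name Gencode release M20 and the files are labelled M18. Positions come from Gencode M21 (GRCm38), in which 54079 gene identifiers were found.

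Counts were summed per gene and rounded. edgeR 4.0.16 (R 4.3.3) was run on the 8 libraries with 4 groups, the TMM and filterByExpr steps and quasi-likelihood F tests. Each gene has 4 residual degrees of freedom, to which these tests add information shared between genes. The p-values were adjusted by Benjamini-Hochberg over all 14791 genes. Standard errors are the log2 fold change divided by the square root of F. CPM use TMM-scaled library sizes. Depth was 8038565 to 16003519 counts per library, and limits for 0 are 3 counts. Replicates differed by more than counting noise (chi-square per degree of freedom 10.9 to 32.5), so no library was a copy of another, and for the detected members the spread between replicates sets the precision.

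The members and all lists were chosen with earlier results of these data known. Every member was named with its values, with all log2 fold changes for both main T-bet comparisons, and elsewhere those at an unadjusted p below 0.05. From other lists, genes called in these comparisons were named by rule, and others were singled out after their values were seen. The test was checked on simulated data, where the share of false calls was above the FDR threshold and part of the smaller changes was missed. Alternatives were DESeq2 1.42.0, limma 3.58.1 on log2(TPM + 1), length offsets, other scaling, filters and call rules, a replicate block, and libraries left out. Promoter windows come from RefSeq (GRCm38.p6), where 7 of 10 members matched. Python 3.11.15 with pandas 2.3.3, numpy 2.4.6, scipy 1.17.1 and matplotlib 3.10.9 was used.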

Additional observations from a re-analysis of the deposited data

How the results depend on the processing

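Of 634 log2 fold changes recomputed for 38 member values given above, 547 kept their direction and side of the threshold, 57 were no longer past it, 19 newly passed it and 11 changed sign, none of them called. Anxa2 changed sign in T-bet + GATA3 against GFP + GATA3, at -0.0443 with library size only, -0.13 with limma on log2(TPM + 1), and from -0.0848 to 0.131 over libraries left out (lowest without T-bet + GATA3 library 1, and -0.0389 without GFP + GATA3 library 2). Anxa6 in GFP + GATA3 against GFP + Plum ranged from -0.596 to 0.254 over libraries left out, and Lgals1 in T-bet + GATA3 against GFP + Plum from -0.418 to 0.0455 (both highest without GFP + Plum library 2). The interaction value of Lgals1 was 0.017 without a filter and from -0.272 to 0.191 over libraries left out (above 0 also at 0.0338, 0.0589 and 0.0933). Over all 7 members, none changed sign in T-bet + Plum against GFP + Plum or in the averaged T-bet effect, but 3 did for HA-GATA3 added to T-bet (Anxa1, Anxa2, Anxa5), 2 in the averaged GATA3 effect (S100a6, Anxa5) and 3 in the interaction (S100a4, Lgals1, Anxa6). The causes were not tested.

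In the main fit, requiring a log2 fold change above 1.5 in size left 0 members called in each T-bet comparison. These were T-bet + Plum and T-bet + GATA3 with GFP + Plum, T-bet + GATA3 with GFP + GATA3, and the average. With a library left out (Anxa6, S100a6) or with limma (Anxa1), single members went past this size, as given above. In T-bet + Plum versus GFP + Plum, 6 members were called without a filter (with S100a4, S100a6 and Anxa2), where 6.35% of all genes were. With limma on log2(TPM + 1), 1 was called (Anxa5), where 3.31% of genes were. The fit without a filter also called 293 genes in GFP + GATA3 versus GFP + Plum, against 3 in the main fit. In the interaction it called 145 genes, against 0. In T-bet + GATA3 against GFP + GATA3, 3 were called with limma (Anxa1, Anxa5 and S100a6), where 3.71% of genes were. With only the libraries of this contrast 4 were called (S100a4 was lost), where 6.6% of genes were. In T-bet + GATA3 versus GFP + Plum, 0 were called with only the libraries of the contrast. With each library left out, 0 to 5, 1 to 5 and 1 to 4 members were called in these comparisons, and 5 to 7 in the average, where 7.82% to 15.2% of genes were. As a percent of estimated counts, the members held 0.289% in GFP + Plum, 0.339% in GFP + GATA3, 0.214% in T-bet + Plum and 0.203% in T-bet + GATA3.

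Leaving out libraries for the transcript shares was added after seeing the data. The difference in the leading share changed sign for Lgals1 (-1.78 to 1.44 percentage points), Anxa2 (-0.40 to 0.45) and Anxa6 (-5.20 to 9.71); no single member could pass this test. DESeq2 called 4 members for T-bet alone (with S100a4) and 5 for T-bet beside HA-GATA3. It called 6 in T-bet + GATA3 versus GFP + Plum (with Anxa6 and Anxa2) and 6 in the average. In this order it called 8.12%, 7.92%, 6.85% and 15.7% of all genes. Without a filter the same 6 members were called in T-bet + GATA3 versus GFP + Plum, where 5.49% of genes were. Adding the replicate number as a block gave 4 called members for T-bet alone (with S100a4), 6 in T-bet + GATA3 versus GFP + Plum (with Anxa6 and Anxa2) and 5 and 6 for T-bet beside HA-GATA3 and for the average, with no other call changed. The block raised the calls over all genes from 917 to 1440, from 854 to 1379, from 721 to 1110 and from 2242 to 3063 for T-bet alone, beside HA-GATA3, for T-bet + GATA3 versus GFP + Plum and in the average. The labels do not say what a replicate number stands for. The deviations of libraries with the same number correlated between -0.05 and 0.30, above 0.1 in 4 of 6 pairs of lines. The main fit did not treat these libraries as paired, and what the correlations come from was not tested. With 2 libraries per line and a lone library assumed to vary like the others when its pair is left out, the pairwise calls are uncertain, and what lies behind the counts of 0 for S100a10 and S100a11 was not tested.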
